A study of Mus musculus with 10 samples.

Results

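The mitotic kinases described here are 10 protein kinases of cell division, Aurka, Aurkb, Plk1, Plk4, Nek2, Ttk, Bub1, Haspin, Melk and Pbk, chosen by gene symbol. All 10 were found among the 55385 genes of the deposited table and all 10 passed the filter on low counts, which left 17997 genes. RNA was sequenced from sorted lung endothelial cells of mice. The libraries labelled EC-TRAIL KO (n = 5; below, the labelled-KO libraries) came from mice with both copies of Tnfsf10, which encodes the death ligand TRAIL, flanked by loxP sites (L/L) and with a Cdh5.Cre transgene (Tg/W), which is expressed from the endothelial Cdh5 promoter as a tamoxifen-activated recombinase. The control libraries (n = 5) came from Tnfsf10 L/L mice without the transgene (Cdh5.Cre W/W). The strain of both groups is given as Cdh5.iCreERT2xTnfsf10Lox/Lox, and the mice were 8 to 14 weeks old. The treatment text, which is the same for both groups, gives tamoxifen at 1 mg per mouse per day for 5 or 10 days before the experiment, without saying which libraries had which course. The transgene goes with the intended deletion in every labelled-KO library, so Cre itself and the loss of TRAIL cannot be told apart. Nothing in the labels ties each library to its own animal, and p-values here therefore measure library-to-library spread, which may be technical. The series' design text counts 4 transgenic mice where the table holds 5 such libraries.

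A cell that enters mitosis switches on a small set of kinases whose transcripts are made late in the cell cycle and whose proteins are destroyed as the cell divides. Aurora A (Aurka) matures centrosomes and builds the spindle, Aurora B (Aurkb) corrects faulty attachments of chromosomes to it, and the Polo-like kinase Plk1 acts at nearly every step from entry to cytokinesis, while Plk4 starts the copying of centrioles. Most endothelial cells of the healthy adult lung are out of the cell cycle, so these transcripts are scarce there, and in bulk RNA more dividing cells and more RNA per dividing cell cannot be told apart.

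Library totals ran from 29806083 to 34702571 expected counts in the labelled-KO libraries and from 34435835 to 56897822 in controls, a difference in depth that passed an exact two-sided permutation test (p = 0.0159, n = 5 each). The kinases had between 27 and 592 expected counts per library. Levels are given as CPM, counts per 1000000 of a library's scaled total. Tnfsf10 was at 80.99 to 198.9 CPM in 4 labelled-KO libraries and at 318 CPM in the library labelled EC-TRAIL KO replicate 2, against 298.2 to 373.6 CPM in controls (log2 fold change -0.90, SE 0.276, edgeR adjusted p = 0.425). Replicate 2 therefore goes against its label in the whole-gene count of Tnfsf10. Exons of Tnfsf10 were not counted apart, so the deletion itself was not measured in any library. The calls, folds, level order, likeness and list medians are given with and without replicate 2. The endothelial markers Cdh5 and Pecam1 were high in every library (at least 3511 and 1924 CPM), as was the alveolar marker Sftpc (at least 3243 CPM).

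Of the 10 kinases, 6 rose in the labelled-KO libraries: Aurkb, Ttk, Melk and Pbk 5.03- to 5.49-fold, Plk1 3.51-fold and Haspin 3.04-fold. Aurka, Bub1, Nek2 and Plk4 had fitted folds of 2.63, 3.03, 3.37 and 1.90 and did not pass. None of the 10 fell. The test was edgeR's quasi-likelihood test with Benjamini-Hochberg adjustment over all 17997 genes at a threshold of 0.05. By the same rule 0.439% of all genes tested were higher and 0% were lower. At an unadjusted p under 0.05 all 10 kinases were higher, as were 3.81% of all genes tested. The median log2 fold change was 1.78 over the 10 kinases and -0.0085 over all genes tested. In 8 of the 10, every labelled-KO library lay above every control, as did 1.38% of all genes tested, and in 0 of the 10 did every labelled-KO library lie below every control, as in 0.261% of all genes. DESeq2 called all 10, and 1.16% of all genes, as higher. The adjusted p of the 6 that rose lay between 0.0432 and 0.0438, close to the threshold. All 6 calls were lost when any 1 of the 5 controls, or labelled-KO replicate 3 or 4, was left out, where their adjusted p was 0.0752 to 0.168 and their log2 fold changes 1.50 to 2.701, against 1.61 to 2.46 with all libraries. In those fits 2 or 3 genes of the whole table passed, against 79. Without labelled-KO replicate 1 all 10 kinases and 155 genes in all passed, without replicate 2 of that group 7 kinases and 88 genes, and without replicate 5 of that group 7 kinases and 114 genes, so the kinase count moved with the count over all genes.

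**Figure D1:**
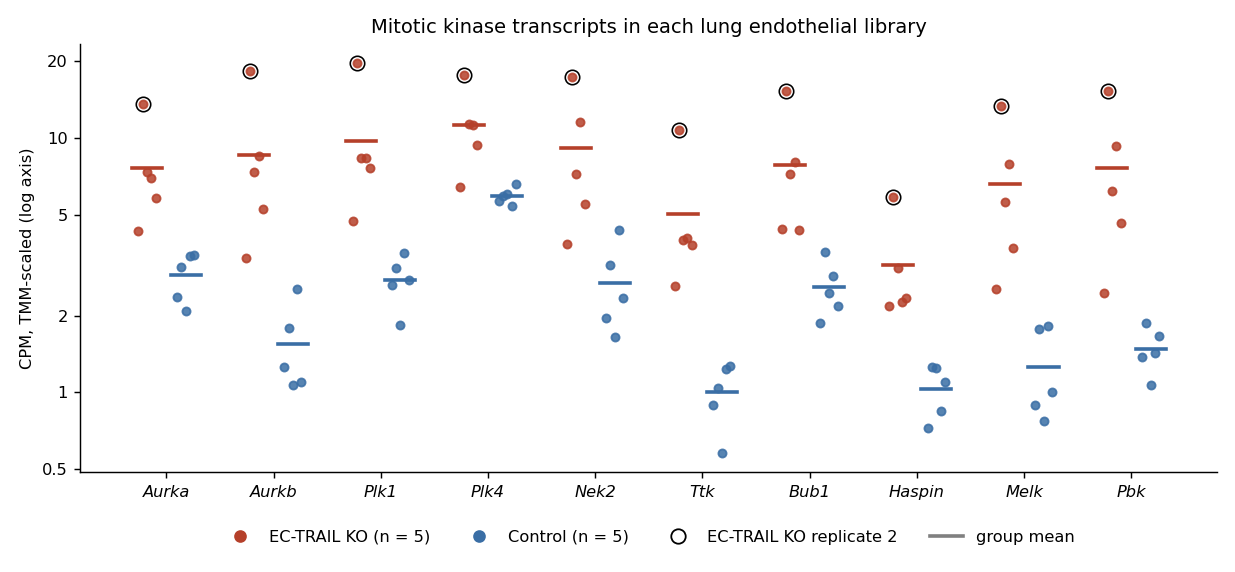
CPM (log axis) of the 10 mitotic kinases in each library, labelled-KO libraries on the left of each pair and controls on the right, with bars at the group means and rings around labelled-KO replicate 2. The groups overlap in Plk4 and Nek2, and replicate 2 is the highest point of every gene (19.6 CPM in Plk1).

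The fold was above 1 in all 10 members, and the sequence around their starts is shown for the 4 whose window holds both of the letter patterns best known from late cell cycle promoters, and for Melk, which holds E2F letters and neither of these. RefSeq windows (build GRCm38.p6) of 250 bases before to 50 after the start were matched for 8 members, namely Aurka, Plk1, Plk4, Nek2, Ttk, Bub1, Haspin and Melk, and not for Aurkb and Pbk. Both strands were searched for TTTGAA or TTCGAA (the cell cycle homology region, or CHR), CCAAT (the letters bound by NF-Y), TTCGCG or TTGGCG (E2F) and TATAA. The last 100 bases before the start and the first 50 from it are printed 5′ to 3′ on the gene's strand, with CHR, CCAAT and E2F letters in capitals (TTCAAA and ATTGG are matches on the other strand): Aurka at chr2:172370521-172370670 on the minus strand, Plk1 at chr7:122159335-122159484 on the plus strand, Ttk at chr9:83834589-83834738 on the plus strand, Bub1 at chr2:127831810-127831959 on the minus strand and Melk at chr4:44300817-44300966 on the plus strand.
Aurka: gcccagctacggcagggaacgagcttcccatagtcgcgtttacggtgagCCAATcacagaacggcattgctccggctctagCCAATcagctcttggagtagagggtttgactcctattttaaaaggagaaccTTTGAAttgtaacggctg
Plk1: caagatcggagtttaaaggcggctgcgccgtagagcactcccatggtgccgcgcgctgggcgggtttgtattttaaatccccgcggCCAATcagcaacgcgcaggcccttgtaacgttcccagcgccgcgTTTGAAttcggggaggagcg
Ttk: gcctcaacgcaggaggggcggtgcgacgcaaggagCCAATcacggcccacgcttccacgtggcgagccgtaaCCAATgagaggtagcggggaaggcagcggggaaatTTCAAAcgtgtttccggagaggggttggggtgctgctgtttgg
Bub1: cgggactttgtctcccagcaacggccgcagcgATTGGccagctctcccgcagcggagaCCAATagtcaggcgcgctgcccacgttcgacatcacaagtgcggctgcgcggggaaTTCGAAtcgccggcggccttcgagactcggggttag
Melk: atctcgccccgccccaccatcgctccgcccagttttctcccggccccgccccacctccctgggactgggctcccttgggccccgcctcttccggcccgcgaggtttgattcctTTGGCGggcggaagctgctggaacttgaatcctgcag
CHR letters were present in 5 of the 8 windows (Aurka, Plk1, Ttk, Bub1 and Haspin), against 19.2% of all 32851 windows in the table, and each of the 5 lay between bases 8 and 38, counting the start as base 1. CCAAT letters were present in 5 (Aurka, Plk1, Ttk, Bub1 and Nek2), against 37.4% of all windows, and 4 of these held them 2 times or more, against 11.7%. Both patterns together were in 4 windows, against 7.52%. E2F letters were in the Melk window only, against 10.7%, and TATAA was in none of the 8, against 24.9%. The Plk4 window held none of the 4 patterns. It ended at 40800000 on chromosome 3, before the gene start of 40800019 given below, so the sequence around that start was not searched. Gene coordinates below come from another annotation, and for some members, Aurka among them, they differ from the RefSeq start. Positions here hold for the RefSeq start only. No motif overlapped another in these windows. A window with such letters describes the sequence and says nothing of binding. Median GC content was 57.8% in the 8 windows, against 52.7% in all.

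**Figure D2:**
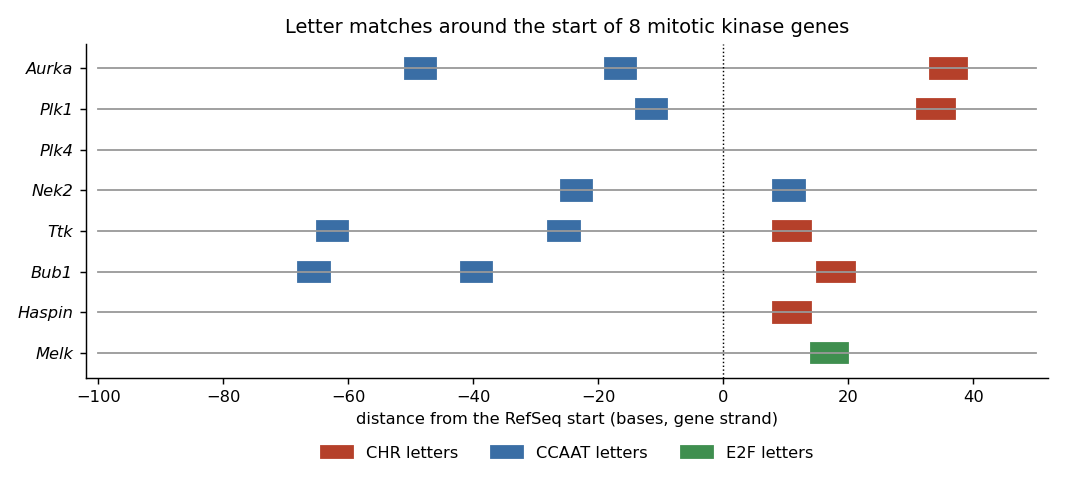
Positions of CHR, CCAAT and E2F letters from 100 bases before to 50 after the RefSeq start of 8 mitotic kinase genes; matches on either strand are drawn along the gene's strand. All CHR matches lie after the RefSeq start, from base 8 to base 38, and the Plk4 window has no match.

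Of the Aurora kinases, Aurkb rose and Aurka did not pass. Aurkb, the catalytic subunit of the chromosomal passenger complex (ENSMUSG00000020897, GRCm38 chromosome 11, 69045647 to 69051664, plus strand), had 3.38, 18.3, 7.38, 8.47 and 5.24 CPM in labelled-KO replicates 1 to 5, against 1.26, 1.78, 1.07, 2.54 and 1.09 CPM in control replicates 1 to 5. Every labelled-KO library lay above the highest control. Means were 8.56 ± 5.80 CPM in labelled-KO libraries and 1.55 ± 0.624 CPM in controls (SD, n = 5 each), and the log2 fold change was 2.46 with an SE of 0.422 (edgeR adjusted p = 0.0432). Aurka (ENSMUSG00000027496, chromosome 2, 172356190 to 172370535, minus strand), whose start carries 2 CCAAT matches, had 4.32, 13.6, 7.32, 6.94 and 5.81 CPM in labelled-KO libraries, against 2.36, 3.11, 2.09, 3.43 and 3.46 CPM in controls. The groups did not overlap, and the log2 fold change was 1.39 (SE 0.279), but it did not pass (edgeR adjusted p = 0.0570; 0.0468 without labelled-KO replicate 2). Per length of exon, the ratio of Aurkb to Aurka within a library was 0.673 to 1.16 in labelled-KO libraries (median 0.866) and 0.272 to 0.636 in controls (median 0.457). This ratio was formed after the values were seen and was not tested.

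Of the Polo-like kinases, Plk1 rose and Plk4 had the smallest fold of the 10. Plk1, the kinase of mitotic entry, spindle poles and cytokinesis (ENSMUSG00000030867, chromosome 7, 122159439 to 122169873, plus strand), had 4.70, 19.6, 8.35, 8.32 and 7.60 CPM in labelled-KO replicates 1 to 5, against 2.65, 3.08, 1.84, 3.51 and 2.75 CPM in control replicates 1 to 5. The lowest labelled-KO library, replicate 1, was above the highest control. Its log2 fold change was 1.81 (SE 0.331, edgeR adjusted p = 0.0432). Plk4, the centriole duplication kinase (ENSMUSG00000025758, chromosome 3, 40800019 to 40816883, plus strand), had 6.39, 17.7, 11.4, 11.2 and 9.39 CPM in labelled-KO libraries, against 5.63, 5.93, 6.03, 5.40 and 6.57 CPM in controls. Replicate 1 lay within the control range and the other 4 above it. Plk4 varied least between controls, with a coefficient of variation of 7.48% against 20.5% to 40.3% in the other 9 members, and its log2 fold change of 0.92 (SE 0.213) did not pass (edgeR adjusted p = 0.117). Without labelled-KO replicate 1 it passed (log2 fold change 1.07, edgeR adjusted p = 0.0113). The ratio of Plk1 to Plk4 per length of exon, also formed after the values were seen, was 2.29 to 3.45 in labelled-KO libraries and 0.951 to 2.03 in controls.

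Among the kinases that act at kinetochores and centromeres, Ttk and Haspin rose. Ttk, known as Mps1, which starts the spindle checkpoint (ENSMUSG00000038379, chromosome 9, 83834689 to 83872389, plus strand), had 2.63, 10.8, 3.98, 4.03 and 3.78 CPM in labelled-KO replicates 1 to 5, against 0.894, 1.04, 0.577, 1.24 and 1.27 CPM in control replicates 1 to 5. Ttk had the widest gap of the 10 between its lowest labelled-KO library and its highest control, a ratio of 2.06. Means were 5.04 ± 3.26 CPM in labelled-KO libraries and 1.00 ± 0.283 CPM in controls (SD, n = 5 each), and the log2 fold change was 2.33 with an SE of 0.375 (edgeR adjusted p = 0.0432). Bub1, the checkpoint kinase that marks centromeric histone H2A (ENSMUSG00000027379, chromosome 2, 127801122 to 127831865, minus strand), had 4.38, 15.3, 7.20, 8.02 and 4.35 CPM in labelled-KO libraries, against 1.86, 3.55, 2.46, 2.86 and 2.19 CPM in controls. Its groups did not overlap, and its log2 fold change of 1.60 (SE 0.332) did not pass (edgeR adjusted p = 0.0697; 0.0386 without labelled-KO replicate 5). Haspin, which marks histone H3 at centromeres for the passenger complex (ENSMUSG00000050107, chromosome 11, 73135485 to 73138294, minus strand), was the scarcest member in labelled-KO libraries by CPM, with 2.19, 5.87, 3.08, 2.25 and 2.36 CPM there, against 0.723, 1.26, 1.24, 0.846 and 1.09 CPM in controls. All 5 labelled-KO libraries lay above the controls, and 4 of them were between 2.19 and 3.08 CPM (log2 fold change 1.61, SE 0.302, edgeR adjusted p = 0.0438). Haspin is a gene of 1 exon inside an intron of Itgae, which lies on the opposite strand. The 2 genes share 0 exon bases, and Itgae had 0.233 to 0.730 CPM in labelled-KO libraries and 0.0867 to 0.408 CPM in controls. The libraries were stranded, but the strand setting of the counting is not given, so it is not known whether these counts keep the strands apart.

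Melk and Pbk rose and Nek2 did not pass. Melk, a kinase of the AMPK-related family found in dividing cells (ENSMUSG00000035683, chromosome 4, 44300876 to 44364675, plus strand), had 2.54, 13.3, 5.62, 7.93 and 3.68 CPM in labelled-KO replicates 1 to 5, against 0.894, 1.77, 0.769, 1.82 and 1.01 CPM in control replicates 1 to 5. Pbk, also called TOPK, a mitotic kinase related to the MAPK kinases (ENSMUSG00000022033, chromosome 14, 65805837 to 65817822, plus strand), had 2.45, 15.3, 6.19, 9.32 and 4.65 CPM in labelled-KO libraries, against 1.37, 1.87, 1.07, 1.43 and 1.66 CPM in controls. In both genes all labelled-KO libraries lay above all controls, with log2 fold changes of 2.39 for Melk (SE 0.430) and 2.35 for Pbk (SE 0.407; edgeR adjusted p = 0.0432 for both). Pbk had the widest spread within the labelled-KO group, 6.25-fold between replicate 2 and replicate 1. Nek2, which separates centrosomes before mitosis (ENSMUSG00000026622, chromosome 1, 191821444 to 191833050, plus strand), had 3.82, 17.4, 7.20, 11.6 and 5.51 CPM in labelled-KO libraries, against 1.96, 3.18, 1.65, 4.34 and 2.34 CPM in controls. Labelled-KO replicate 1 lay below control replicate 4, and the log2 fold change of 1.75 (SE 0.395) did not pass (edgeR adjusted p = 0.106; 0.0272 without labelled-KO replicate 1). Nek2 shares 298 exon bases with the antisense gene Gm38037 (at most 0.451 CPM in any labelled-KO library and 0.214 CPM in any control), and Plk1 shares 156 with Gm44985 on the opposite strand (at most 0.0995 CPM in any labelled-KO library and 0.0651 CPM in any control).

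For each member alone, an exact two-sided permutation test of log2(CPM + 1) over the 252 assignments of the libraries gave p = 0.00794 in 8 members, the smallest that 5 against 5 libraries can give. These are the 8 whose groups did not overlap, which by itself fixes that p, so it adds nothing to the separation. Of all genes tested, 1.38% lay wholly above the controls and 0.261% wholly below, and the same holds for them. The exact permutation p was 0.0159 for Plk4 and for Nek2, each with 4 of 5 labelled-KO libraries above all controls. These p-values are not adjusted.

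Levels can be compared between members only per length of transcript. In labelled-KO libraries the order by CPM per kb of exon was Plk1 (4.42 ± 2.61), Pbk (4.24 ± 2.79), Aurka (3.002 ± 1.40), Aurkb (2.91 ± 1.97), Melk (2.23 ± 1.43), Nek2 (2.02 ± 1.21), Bub1 (1.80 ± 1.03), Plk4 (1.64 ± 0.607), Haspin (1.12 ± 0.556) and Ttk (1.02 ± 0.663; SD, n = 5 each). No pair of neighbours in that order differed by more than the larger of their SDs. Without labelled-KO replicate 2 the order was the same except that Plk4 (1.40 ± 0.338) stood above Bub1 (1.38 ± 0.438; SD, n = 4), and Bub1 then lay above Haspin (0.879 ± 0.147) by more than the larger SD. In controls Plk1 (1.26 ± 0.281) and Aurka (1.14 ± 0.248) were highest, Plk4 was the third (0.862 ± 0.0645) and Ttk the lowest (0.204 ± 0.0576). There, Aurka lay above Plk4 and Haspin (0.367 ± 0.0849) above Ttk by more than the larger SD, and the other 7 neighbouring pairs did not. Each member's log2(CPM + 1) was also set against the mean of the other 9 in the same library. This scale is not per length, so only the difference between groups can be read from it. For Plk4 the value was 0.346 to 0.892 in labelled-KO libraries and 0.974 to 1.58 in controls. Only for Plk4 and Aurka did the groups not overlap on that scale. Per length, Plk4 stood at rank 8 in labelled-KO libraries and at rank 3 in controls, Pbk at rank 2 in labelled-KO libraries and rank 4 in controls, and Aurkb at rank 4 in labelled-KO libraries and rank 7 in controls.

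**Figure D3:**
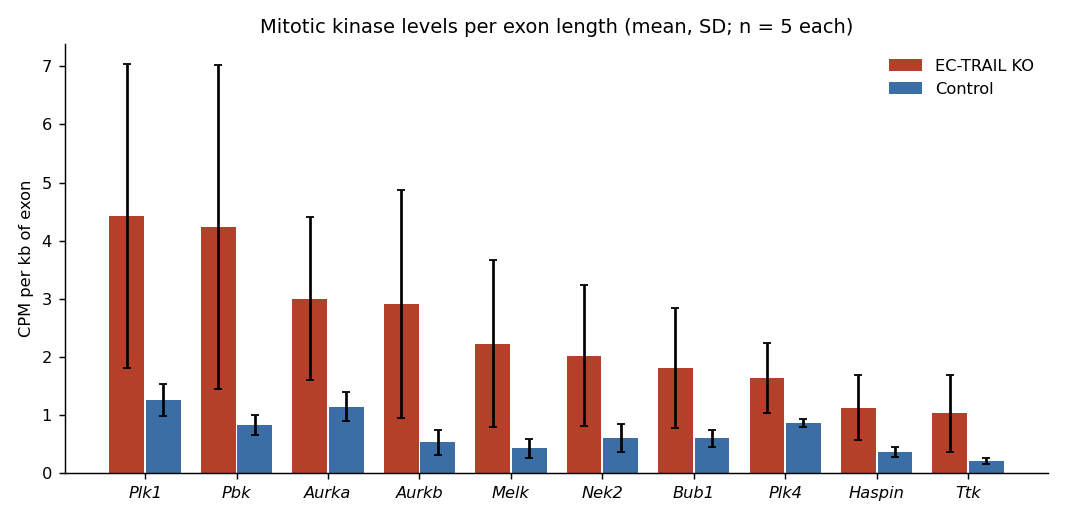
CPM per kb of exon of each mitotic kinase (bars are means and whiskers SD, n = 5 each), labelled-KO libraries left and controls right, ordered by the labelled-KO mean. Plk1 is highest (4.42 CPM per kb in labelled-KO libraries and 1.26 in controls) and Ttk lowest (1.02 in labelled-KO libraries and 0.204 in controls).

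The labelled-KO libraries differed widely among themselves, and in nearly the same order for every kinase. Replicate 2 was the highest of the group in 10 of 10 members, replicate 4 was the second in 6 and replicate 3 in 4, and replicate 1 was the lowest in 9, with Bub1 the exception at 4.38 CPM in replicate 1 and 4.35 CPM in replicate 5. The summed level of the 10 kinases was 36.8, 147, 67.7, 78.1 and 52.4 CPM in labelled-KO replicates 1 to 5, against 19.6, 26.6, 18.8, 27.4 and 23.4 CPM in control replicates 1 to 5. Tnfsf10 had 198.9, 318, 126.3, 169.3 and 80.99 CPM in the same labelled-KO libraries. Replicates 2, 4, 3 and 5 stood in the same falling order in Tnfsf10 and in kinase sum. Only replicate 1 departed from it, with the lowest kinase sum and the second highest Tnfsf10 of the group. The library with the most kinase transcript was the one with Tnfsf10 in the control range, and the library with the least Tnfsf10, replicate 5, had the second lowest kinase sum of its group. No relation between the 2 measures was tested over these 5 libraries. Without replicate 2 the ratio of mean CPM in labelled-KO to control libraries was 1.62 (Plk4) to 3.95 (Aurkb and Melk), against 1.90 to 5.53 with it, and 7 members passed, Aurka being the added one (median log2 fold change 1.39).

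**Figure D4:**
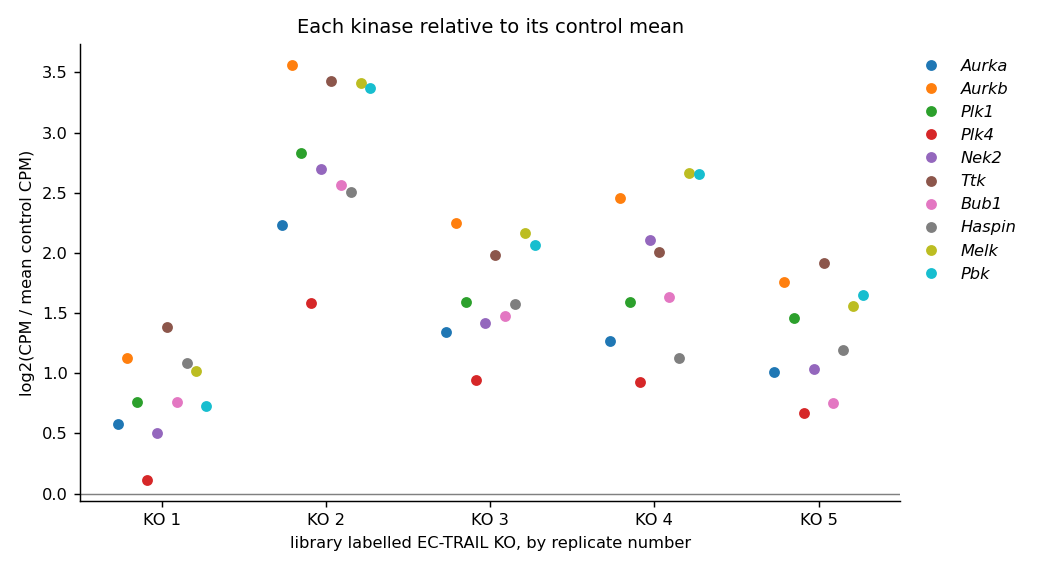
Each mitotic kinase in each labelled-KO library as log2 of its CPM over the control mean of that gene; the grey line at 0 is the control mean. All points are above 0, and those of replicate 2 are highest in each gene (18.3 CPM in Aurkb).

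Summed markers of most lists of other cell types were lowest in the library with the highest kinase levels. Replicate 2 of the labelled-KO group had the lowest summed level of all 10 libraries for 4 of the 5 lists of other cell types: 6411 CPM over 8 alveolar epithelial markers (6411 to 9260 CPM in labelled-KO libraries and 7651 to 11644 CPM in controls), 1072 CPM over 10 leukocyte markers (1072 to 1579 CPM in labelled-KO libraries and 1267 to 1921 CPM in controls), 330 CPM over 7 fibroblast markers (330 to 562 CPM in labelled-KO libraries and 416 to 550 CPM in controls) and 339 CPM over 7 pericyte and smooth muscle markers (339 to 588 CPM in labelled-KO libraries and 456 to 609 CPM in controls). It had the highest sum over 10 endothelial markers, 12620 CPM (10711 to 12620 CPM in labelled-KO libraries and 10795 to 12436 CPM in controls). The 8 platelet and erythroid markers summed to 9.73 to 28.8 CPM in labelled-KO libraries and 13.01 to 44.2 CPM in controls. No marker of any list passed the test. The leukocyte gene Ptprc was at 2.28 to 4.64 CPM in labelled-KO libraries and 1.60 to 4.51 CPM in controls, and Cd3e and Ly6g were at 0 in at least 1 library. Most of the leukocyte sum was Lyz2 (1001 CPM in replicate 2 of the labelled-KO group). Of all 10 libraries that replicate was lowest in Lyz2, Csf1r (29.7 CPM) and Nkg7 (0.0664 CPM). Its Nkg7 value rests on 2 counts, and Nkg7 was under the filter. The same replicate was the highest in Ptprc (4.64 CPM) and Cd79a (3.25 CPM), so the leukocyte markers did not all fall there. Among defining markers of the other lists, Col1a1 was at 87.7 to 131.4 CPM in labelled-KO libraries and 89.9 to 126 CPM in controls, Pdgfrb at 86.9 to 151.5 CPM in labelled-KO libraries and 117.4 to 168.9 CPM in controls, and the platelet gene Pf4 at 0.365 to 1.65 CPM in labelled-KO libraries and 0.704 to 3.45 CPM in controls. With the mean of the markers of other cell types as a covariate, the log2 fold changes of the 10 kinases were 0.77 to 2.39 and 0 passed (edgeR adjusted p 0.361 or more). In that fit 1 of all 17997 genes tested passed, against 79 without the covariate. The median log2 fold change of the kinases was 1.68 with it and 1.78 without it. Whether these markers or the difference in depth have a part in the kinase values was not otherwise tested.

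The known partners of these kinases were followed in lists by role, chosen with earlier results of these data known. Of all genes tested, 0.439% rose and 0% fell by the same rule. Of 6 Aurora partners 3 rose, 0 fell and 3 did not pass, with a list median of 1.62: Tpx2, the spindle activator of Aurora A, rose 5.19-fold (23.9 ± 14.4 CPM in labelled-KO libraries and 4.59 ± 1.25 CPM in controls; SD, n = 5 each), Cdca8, which encodes borealin, 5.09-fold, and Birc5, which encodes survivin, 4.45-fold. Incenp, the scaffold that activates Aurora B, had a log2 fold change of 1.08 (SE 0.231) and did not pass (edgeR adjusted p = 0.0773). Of 7 partners of the checkpoint kinases 3 rose, 0 fell and 4 did not pass (median 1.46, and 0.94 without labelled-KO replicate 2), with the kinetochore scaffold Knl1 4.80-fold, the centromere protector Sgo2a 3.86-fold and the checkpoint protein Bub1b 3.74-fold higher. Of 5 partners of the Polo-like kinases only Stil, which works with Plk4 in centriole assembly, rose (5.78-fold; 9.58 ± 6.69 CPM in labelled-KO libraries and 1.64 ± 0.624 CPM in controls); its call was lost without labelled-KO replicate 2, where the ratio of its means was 4.32, against 5.83 with it, and the list median was 0.31 (0.21 without that library). Cep152 and Cenpu had log2 fold changes of 0.25 (SE 0.0813) and 0.67 (SE 0.311). None of the 3 linker proteins acted on by Nek2 passed (Cep250 at 0.12, Crocc at 0.02 and Cep68 at -0.015, log2 fold changes).

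Other members of the same kinase families gave no call. Of 14 other Aurora, Polo-like and Nek kinases 13 were tested, 0 passed in either direction, and the median log2 fold change was -0.0070 with a range of -0.21 to 0.28. The 3 with the smallest p were Nek1, at -0.17 (SE 0.0849), Nek3, at 0.28 (SE 0.148), and Nek5, at -0.21 (SE 0.202). Aurkc, the germ cell Aurora, was under the filter, with means of 0.0236 CPM in labelled-KO libraries and 0.0145 CPM in controls. Of 14 kinases of the AMPK-related family, to which Melk belongs, 0 passed (median 0.07, range -0.17 to 0.43), with Nuak2 at 0.43 (SE 0.181), Mark4 at 0.14 (SE 0.120) and Mark3 at 0.08 (SE 0.0717).

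Among other kinases of the cell cycle, 1 of 10 rose: Cdk1, the kinase of mitotic entry, was at 12.8 ± 8.55 CPM in labelled-KO libraries and 2.34 ± 0.646 CPM in controls (SD, n = 5 each), 5.44-fold higher (edgeR adjusted p = 0.0432). The fold was above 1 in all 10, and the median on the log2 scale was 0.74. Cit, the citron kinase of cytokinesis, had 0.96 (SE 0.217, edgeR adjusted p = 0.106) and Mastl, the Greatwall kinase, 1.59 (SE 0.375, edgeR adjusted p = 0.138). Of 20 opposing or activating phosphatases and their regulators 2 rose, Cdc25c, which activates Cdk1 (5.89-fold, at 1.89 ± 1.10 CPM in labelled-KO libraries and 0.320 ± 0.174 CPM in controls), and Cdca2, which brings PP1 to chromatin (4.29-fold); the median was 0.04, and the Cdc25c call was lost without labelled-KO replicate 2, where the ratio of its means was 4.56, against 5.88 with it. Cdc25b, the phosphatase of early mitotic entry, had 0.60 (SE 0.186). Of 17 genes of the anaphase-promoting complex, which destroys Aurora and Polo-like kinases at mitotic exit, 2 rose, the activator Cdc20 (3.12-fold) and the E2 enzyme Ube2c (3.69-fold), and the median was 0.0075. The inhibitor Fbxo5 had 0.84 (SE 0.231, edgeR adjusted p = 0.273).

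Of 19 transcription regulators of the cell cycle 2 rose: Foxm1, an activator of late cell cycle genes, at 29.7 ± 16.97 CPM in labelled-KO libraries and 8.57 ± 1.61 CPM in controls (3.45-fold, edgeR adjusted p = 0.0432), and E2f7, an atypical repressor, at 19.0 ± 10.7 CPM in labelled-KO libraries and 6.11 ± 1.02 CPM in controls (3.10-fold, edgeR adjusted p = 0.0482). E2f8, its partner, had 1.82 (SE 0.405, edgeR adjusted p = 0.0982), and the list median was 0.29. Of 18 S phase genes 1 rose, Rrm2, a subunit of ribonucleotide reductase (3.96-fold); the fold was above 1 in all 18, and their median on the log2 scale was 0.69, beside the 1.78 of the mitotic kinases (0.45 and 1.39 without labelled-KO replicate 2). Uhrf1, a reader of DNA methylation, had 1.88 (SE 0.391, edgeR adjusted p = 0.0696) and Tk1, the thymidine kinase, 0.81 (SE 0.178, edgeR adjusted p = 0.0863). In the 11 lists together 15 of 132 tested genes rose and 0 fell, beside 0.439% and 0% of all genes tested. The lists were chosen with earlier results of these data known, so these counts are descriptive. None of the 15 passed when any 1 control, or labelled-KO replicate 3 or 4, was left out, and 15 passed without replicate 2, with Stil and Cdc25c lost and Cit and Incenp added. Without that library the ratio of means of the 15 was 2.40 (E2f7) to 4.56 (Cdc25c), against 3.10 to 5.88 with it, with Cdk1 at 4.00, against 5.47. The remaining list medians without it were 1.28 for the Aurora partners, 0.54 for the other cell cycle kinases, 0.17 for the transcription regulators and between -0.015 and 0.03 for the other 5 lists.

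**Figure D5:**
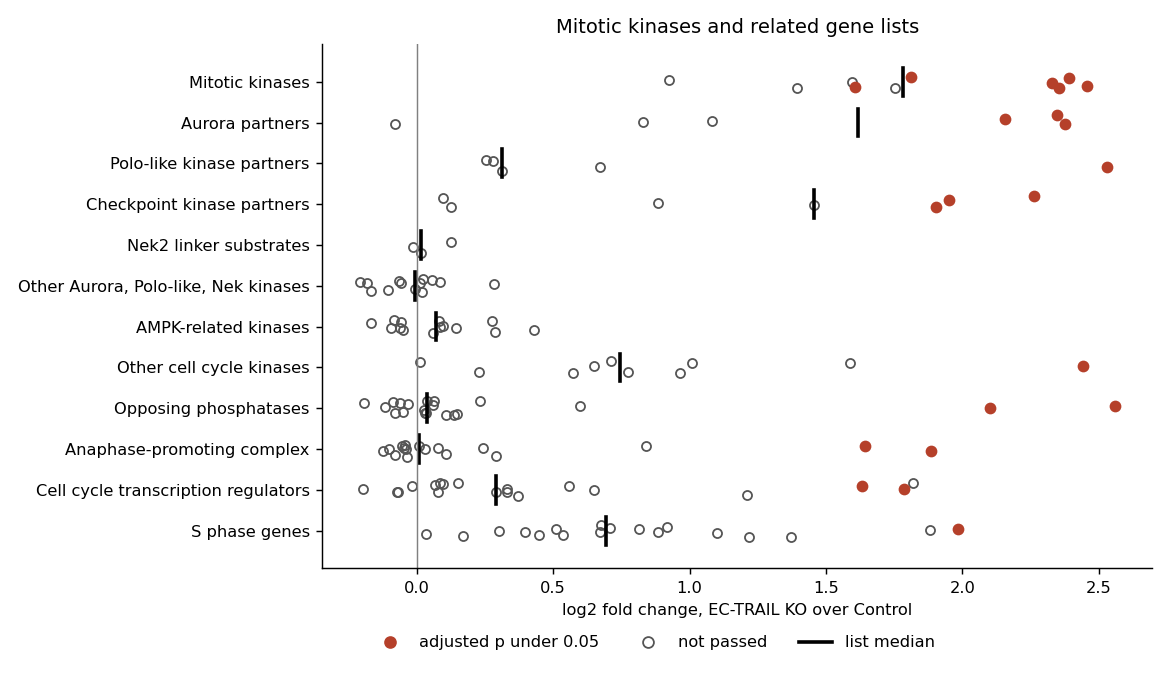
Log2 fold changes, labelled-KO over control libraries, of the 10 mitotic kinases and of 11 related lists; filled points passed edgeR's test over all genes (adjusted p under 0.05), open points did not, and bars are list medians. The median is 1.78 for the mitotic kinases and -0.0070 for the other Aurora, Polo-like and Nek kinases.

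From 14726 genes with a mean of at least 1 CPM, the kinases themselves, genes not coding for protein and genes with Gm or Rik names were set aside. Among the rest, the genes whose pattern over the 10 libraries was most like the mean log2(CPM + 1) of the kinases were Ccna2, which encodes cyclin A2, the kinesins Kif15, Kif14 and Kif11, the condensin gene Ncapg, the spindle midzone gene Prc1, Rrm2 and Top2a. As a measure of likeness, Pearson's r over the 10 libraries was 0.995 to 0.997 for these 8, and 0.983 to 0.990 after each gene was centred on its group means. Over the 9 libraries without labelled-KO replicate 2 the same genes had r of 0.990 to 0.998, and 0.948 to 0.991 after centring. The genes share their libraries, depth and scaling, and the values carry no test. Ccna2 was at 23.3 ± 14.8 CPM in labelled-KO libraries and 5.84 ± 1.32 CPM in controls, and Kif15 at 12.3 ± 8.02 CPM in labelled-KO libraries and 3.17 ± 0.717 CPM in controls (SD, n = 5 each).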

How the data were processed

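RNA of 10 samples of sorted lung endothelial cells was extracted with TRIzol and its poly-adenylated part sequenced after a stranded library preparation, per the labels' protocols. Per the submitters' processing notes, the authors used STAR 2.7.1a and RSEM 1.2.28 with build GRCm38; no source used here names the annotation release or the strand setting of the counting. The table deposited by the authors holds RSEM expected counts per gene with no normalization. GENCODE M21 symbols matched 55144 of 55385 identifiers without their version.

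Rounded expected counts entered edgeR 4.0.16 under R 4.3.3, with limma 3.58.1 and DESeq2 1.42.0 as alternatives. filterByExpr (minimum count 10) kept 17997 genes. Libraries were scaled by TMM, and groups were compared by edgeR's quasi-likelihood test (default estimation, no covariate) with Benjamini-Hochberg adjustment over all genes tested. The SE is the size of the log2 fold change divided by the square root of F. CPM uses TMM library sizes, and CPM per kb divides by the union of annotated exons. No pair of libraries agreed within sampling noise (chi-square over degrees of freedom at least 20.1). The script was tested on simulated data.

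The members, lists and naming rule were chosen with earlier results of these data known. Named are all members, Tnfsf10, the passing genes of each list (or, where fewer than 3 pass, those with the smallest p up to 3), the 8 genes most alike in pattern and defining markers. Overlapping genes, Incenp and Aurkc were named after their values were seen. Ranges of totals limit precision: a kinase with 27 counts carries more counting error than 1 with 592.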

Additional observations from a re-analysis of the deposited data

Results flagged for a closer look

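In 3 of the 20 sets of 5 libraries (10 kinases in each group), 1 library stood apart from the other 4 by a gap of more than 0.71 of the set's whole range. In each of the 3 it was the library labelled EC-TRAIL KO replicate 2: Plk1 at 19.6 CPM, Ttk at 10.8 CPM and Haspin at 5.87 CPM. Chance alone does so in about 1 in 20 sets of independent, normally distributed values. The 3 flagged sets share their libraries, and within the labelled-KO group the kinases varied together (median r of 0.948 between pairs). The 3 flags are therefore not independent, and their number cannot be set against that rate. Over the controls the kinases varied together less closely (median r of 0.554, from -0.712 for Aurkb with Plk4 to 0.955 for Aurka with Ttk). The gap was 0.755 of the range for Plk1, 0.828 for Ttk and 0.757 for Haspin. The same library has Tnfsf10 in the control range and the lowest sums for 4 of the 5 marker lists of other cell types. Of these 4, the leukocyte sum was mostly Lyz2 (1001 of 1072 CPM there), and Ptprc and Cd79a were highest in that library. The part of Tnfsf10 or of the marker sums in these values was not tested. Without that library Plk1, Ttk and Haspin still passed (edgeR adjusted p = 0.0230, 0.0160 and 0.0345).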

How the results depend on the processing

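All 10 log2 fold changes stayed above 0 in all 20 alternatives. Of the 10 kinases, 0 passed with library size only, limma-voom, limma-voom with quality weights or the marker covariate, 9 without a filter and 10 with DESeq2; 6 passed with RLE factors, a mean CPM of at least 1 and the newer estimation (added after seeing the data). Over all genes, 2 passed with library size only and with either form of limma-voom, 1 with the covariate, 143 without a filter and 211 with DESeq2, against 79. Leaving out 1 library gave 0 to 10 kinases and 2 to 155 genes. In the 11 alternatives where all 6 calls were lost, their log2 fold changes were 1.26 to 2.701 and adjusted p 0.0501 to 0.435. The planned legacy estimation is the default of this version and gave no separate fit. A pseudocount of 0.25 left every exact permutation p as it was. With the replicate number as a block, 9 kinases (all but Plk4) and 149 genes passed, with a median log2 fold change of 1.67 for the kinases. The labels do not say what the numbers share; deviations of same-numbered libraries correlated at 0.0586 to 0.588, and 4 of 5 labelled-KO libraries correlated best with the control of their own number. The level order and likeness without labelled-KO replicate 2 were also added after seeing the data. The causes were not tested.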
